A study of Mus musculus with 258 samples.

Results

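The 9 neuronal microtubule genes were followed from endocrine progenitors to young beta cells of the embryonic mouse pancreas. They were chosen by symbol, with earlier results of these data known. Tubb3 encodes a beta-tubulin isotype typical of neurons. Dcx, Map1b and Mapt encode the microtubule-binding proteins doublecortin, MAP1B and tau. Stmn1 to Stmn4 are the stathmin family, whose proteins bind tubulin dimers. Gap43 encodes a growth-associated protein of nerve endings. All 9 were found, each under 1 entry, among 40824 genes of the count tables. Bulk RNA-seq of 6 libraries and 221 single cells of the study of chromatin marks and the histone demethylase JMJD3 in endocrine commitment were used, and its 31 chromatin immunoprecipitation samples were not used here.

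The bulk groups, with 2 libraries each, were E13.5 Ngn3-low cells and E13.5 Ngn3-high cells sorted from dorsal pancreas of Ngn3-GFP embryos, and Ins1-RFP+ cells of E17.5 pancreata, which the study calls nascent beta cells. Ngn3, the product of Neurog3, is the transcription factor that starts the endocrine programme, and Ngn3-high cells are the progenitors that make most of it. The single cells were 44 Ngn3-high cells and 69 Ngn3-low cells of E13.5 Pdx1-Cre; Jmjd3 fl/fl dorsal pancreas, called deleted below, and 59 Ngn3-high cells and 49 Ngn3-low cells of E13.5 WT dorsal pancreas. Pdx1-Cre acts in the pancreatic epithelium, and the labels of the WT cells name no Cre. The labels name no animal, so the single cells count as 1 sample a group and are not tested. The p-values in bulk rest on the spread between the 2 libraries of a group, estimated over all 6 libraries together. That spread may be technical, and a group left with 1 library takes it from the other groups. The sorted marker followed the labels in bulk, where Neurog3 had 185 and 150 CPM in the Ngn3-low libraries, 1200 and 1085 CPM in the Ngn3-high libraries and 30.2 and 28.4 CPM in the Ins1-RFP+ libraries. Kdm6b, the gene of JMJD3, had 107 CPM in deleted and 265 CPM in WT Ngn3-high cells, and 55.5 CPM in deleted and 131 CPM in WT Ngn3-low cells, over the whole gene and not the deleted part alone.

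Microtubules are hollow tubes of alpha- and beta-tubulin that grow and shrink at their ends. Structural microtubule-associated proteins such as MAP1B, tau and doublecortin bind along the tube and steady it, while stathmins hold tubulin dimers and promote shrinkage. These genes are best known from neurons, where they shape axons and growth cones, and many neuronal genes are also read in pancreatic endocrine cells, which share regulators such as NeuroD1 with neurons. REST is a repressor of neuronal genes in cells that are not neurons.

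The promoter sequences of the members with the steepest shared rise, Tubb3 and Map1b, are shown beside that of Dcx, whose level moved little. They were picked by the levels of the genes, so nothing about the levels is read from their base composition. They are RefSeq sequences of assembly GRCm38.p6, each covering 250 bases before and 50 bases after a start that RefSeq's promoter table gives, written 5′ to 3′ on the gene's strand. For Tubb3 and Map1b that start is the outer end of the gene given below, while the table gives 2 starts for Dcx, both inside the gene's span, of which the first is shown. Capitals mark matches to CAGCACC and GGACAG, which stand in the left and right parts of the REST element, and to CAGATG and CAGCTG, E-boxes of the kind bound by Ngn3 and NeuroD1, searched on both strands. The windows are chr8:123411303-123411602 on the plus strand for Tubb3, chr13:99516553-99516852 on the minus strand for Map1b and chrX:143933170-143933469 on the minus strand for Dcx.
Tubb3: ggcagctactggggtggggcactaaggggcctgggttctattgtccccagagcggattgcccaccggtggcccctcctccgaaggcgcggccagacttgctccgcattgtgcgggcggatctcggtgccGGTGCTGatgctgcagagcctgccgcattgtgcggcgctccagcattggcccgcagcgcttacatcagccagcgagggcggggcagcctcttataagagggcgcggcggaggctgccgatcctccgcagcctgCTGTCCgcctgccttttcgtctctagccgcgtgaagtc
Map1b: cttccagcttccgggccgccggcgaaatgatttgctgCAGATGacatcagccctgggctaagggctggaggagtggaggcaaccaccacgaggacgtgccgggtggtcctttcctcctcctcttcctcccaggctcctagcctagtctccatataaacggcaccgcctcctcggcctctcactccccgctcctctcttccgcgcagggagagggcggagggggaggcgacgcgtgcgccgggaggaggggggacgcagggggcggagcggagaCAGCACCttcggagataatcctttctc
Dcx: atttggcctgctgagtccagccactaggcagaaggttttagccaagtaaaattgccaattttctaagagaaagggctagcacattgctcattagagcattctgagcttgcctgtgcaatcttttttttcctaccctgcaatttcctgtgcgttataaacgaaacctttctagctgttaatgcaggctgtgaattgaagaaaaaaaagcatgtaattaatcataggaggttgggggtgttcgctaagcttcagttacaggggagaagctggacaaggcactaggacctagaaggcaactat

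Tubb3 carried a CAGCACC match on the reverse strand, read as GGTGCTG, 121 bases before its start, and a GGACAG match, read as CTGTCC, 12 bases after it. Map1b carried CAGCACC 23 bases after its start and the E-box CAGATG 213 bases before it. CAGCACC was found in 7.09% of the 27025 promoters of the same 300 bases, GGACAG in 22.1%, CAGATG in 17.2% and CAGCTG in 16.1%. Both Dcx windows held 0 of these 4 motifs, and the Tubb3 window held 0 matches to the general E-box CANNTG, which 72.1% of promoters hold and of which CAGATG and CAGCTG are cases. The Tubb3 and Map1b windows had 26 and 23 CG dinucleotides, against 3 in either Dcx window and a median of 7 over all promoters. A promoter was given for 4 of the 9 members; the other was Stmn3, with 6 CG dinucleotides and CAGATG 75 bases before its start. A match is a run of letters and not a measured binding site.

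The genes lie apart in the genome. In GRCm38.p6 coordinates, Tubb3 is at chr8:123411553-123422015, Map1b at chr13:99421464-99516602, Mapt at chr11:104229409-104332090, Dcx at chrX:143855842-143933396 and Gap43 at chr16:42248552-42340651. Stmn1 is on chromosome 4, Stmn2 on chromosome 3, Stmn3 on chromosome 2 and Stmn4 on chromosome 14. Mapt overlaps a snoRNA and Gap43 overlaps Mir6540, and 7 members overlap no other listed gene.

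Bulk values are CPM (read counts scaled to library size) after TMM scaling, and tests are edgeR's quasi-likelihood test with Benjamini-Hochberg adjustment over 15684 genes at 0.05. The libraries held 11957415 to 17760214 reads in genes, so that 3 reads, taken as the floor, are 0.162 to 0.25 CPM. The groups also differed in markers of other cell types, which stand beside the results they touch. Summed markers of white blood cells (8 genes) had 3976 and 3320 CPM in the Ngn3-low libraries, 13.1 and 5.08 CPM in the Ngn3-high libraries, and 73.0 and 130 CPM in the Ins1-RFP+ libraries. Acinar markers (8 genes) summed to 1102 CPM in Ins1-RFP+ library 1 and 17899 CPM in library 2, the widest gap between 2 libraries of a group among the marker lists. In bulk, fewer cells of a type and less RNA per cell cannot be told apart.

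Ngn3-high cells were set against Ngn3-low cells, sorts that also differed in mitotic genes and in markers of other cell types. Tubb3, Map1b and Mapt rose steeply, Dcx rose slightly, and Stmn1, Stmn2 and Gap43 fell. Of the 8 members that passed the filter on low counts, 4 rose, against a background of 27.7% of all genes tested, and 3 fell, against a background of 30.2%; Stmn3 did not pass the test. The median log2 fold change of the 8 was 0.75, and that of all genes tested was -0.01. The members' median was 1.37 without Ngn3-low library 1, and over the 9 members then tested it was 0.34 without Ngn3-low library 2, 0.22 without Ngn3-high library 2 and 0.36 without Ins1-RFP+ library 2, so it is no stable summary of genes that moved in both directions.

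Tubb3 had 218 and 172 CPM in the Ngn3-high libraries, against 5.71 and 5.11 CPM in the Ngn3-low libraries. The groups lie far apart, with a mean of 195 ± 32.8 CPM in Ngn3-high and 5.41 ± 0.425 CPM in Ngn3-low (SD, n = 2 each). Tubb3 was 35.8-fold higher in Ngn3-high cells, with a log2 fold change of 5.16 (SE 0.192, edgeR adjusted p = 4.35e-07). Its rise was between 4.96 and 5.34 on the log2 scale when each library was left out in turn.

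Map1b had 909 and 1002 CPM in the Ngn3-high libraries, against 39.99 and 39.74 CPM in the Ngn3-low libraries. No library of one group came near the other. Map1b was 24-fold higher in Ngn3-high cells, with a log2 fold change of 4.58 (SE 0.143, edgeR adjusted p = 2.97e-07). MAP1B is the structural protein that comes on early in growing axons.

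Mapt was low in both groups but still separated them. It had 13.02 and 18.14 CPM in the Ngn3-high libraries, against 1.29 and 0.61 CPM in the Ngn3-low libraries. The log2 fold change was 3.94 (SE 0.287, edgeR adjusted p = 8.28e-06), and it was 4.65 without Ngn3-low library 1, the higher of the Ngn3-low pair.

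Dcx, the doublecortin gene, was well read on both sides. It had 107 and 129 CPM in the Ngn3-high libraries, against 93.0 and 92.4 CPM in the Ngn3-low libraries. The groups did not overlap, but the rise was 1.27-fold (log2 fold change 0.35, SE 0.115, edgeR adjusted p = 0.0293). Leaving out Ngn3-low library 1 (adjusted p = 0.114), Ngn3-low library 2 (0.129) or Ngn3-high library 2 (0.11) ended the call, as it did when libraries were scaled by total counts (0.0833).

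Among the stathmins, Stmn1, the member of the family that dividing cells also make, went the other way. It had 147 and 136 CPM in the Ngn3-high libraries, against 265 and 249 CPM in the Ngn3-low libraries. It was 1.82-fold lower in Ngn3-high cells, with a log2 fold change of -0.86 (SE 0.106, edgeR adjusted p = 0.00018), and the groups did not overlap. Beside it, all 18 tested genes of a list of mitotic kinesins and spindle proteins fell, against a background of 30.2% of all genes tested. Their median log2 fold change was -3.13. Mki67, the proliferation antigen Ki-67, averaged 46.8 ± 6.86 CPM in Ngn3-high and 576 ± 47.7 CPM in Ngn3-low (SD, n = 2 each). The part of these genes in the fall of Stmn1 was not tested.

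Stmn2, also called SCG10, was near the floor in Ngn3-high cells. It had 3 and 2 reads in the Ngn3-high libraries, 0.179 and 0.166 CPM, against 27 and 26 reads in the Ngn3-low libraries, 1.46 and 1.98 CPM. The ratio of the pooled reads per depth was 0.104, with an exact binomial interval at 95% of 0.0324 to 0.258 for counting error only, and edgeR gave an adjusted p of 0.000871. Markers of white blood cells were also high in the Ngn3-low libraries, as were those of endothelium, at 13.2 and 9.15 CPM in the Ngn3-high libraries against 334 and 363 CPM in the Ngn3-low libraries. In single Ngn3-low cells Stmn2 had 0 reads in both genotypes, and white blood cell markers summed there to 4.20 CPM in deleted and 7.45 CPM in WT cells.

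Gap43 had 1.73 and 2.66 CPM in the Ngn3-high libraries, against 8.08 and 5.34 CPM in the Ngn3-low libraries. It fell by 1.63 on the log2 scale (SE 0.455, edgeR adjusted p = 0.0142). Leaving out Ngn3-low library 1 (log2 fold change -1.29, adjusted p = 0.085) or Ngn3-high library 1 (-1.36, adjusted p = 0.113) ended the call. In single Ngn3-low cells Gap43 had 1 read in all 49 WT cells and 0 reads in all 69 deleted cells. The part of other cell types in the bulk reads of Stmn2 and Gap43 was not tested.

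Stmn3 and Stmn4 were also low. Stmn3 had 1.49 and 0.92 CPM in the Ngn3-high libraries, against 0.81 and 0.23 CPM in the Ngn3-low libraries, which did not overlap but differed by a log2 fold change of 1.15 with an edgeR adjusted p of 0.12. Without Ngn3-low library 1, which leaves the library with 3 reads alone in its group, the difference was 2.38 with an adjusted p of 0.039, while it was 0.59 without Ngn3-low library 2 (adjusted p = 0.457) and 0.72 without Ngn3-high library 1 (adjusted p = 0.491). Stmn4 had 3 and 1 reads in the Ngn3-high libraries, against 12 and 4 reads in the Ngn3-low libraries, and did not pass the filter on low counts.

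**Figure D1:**
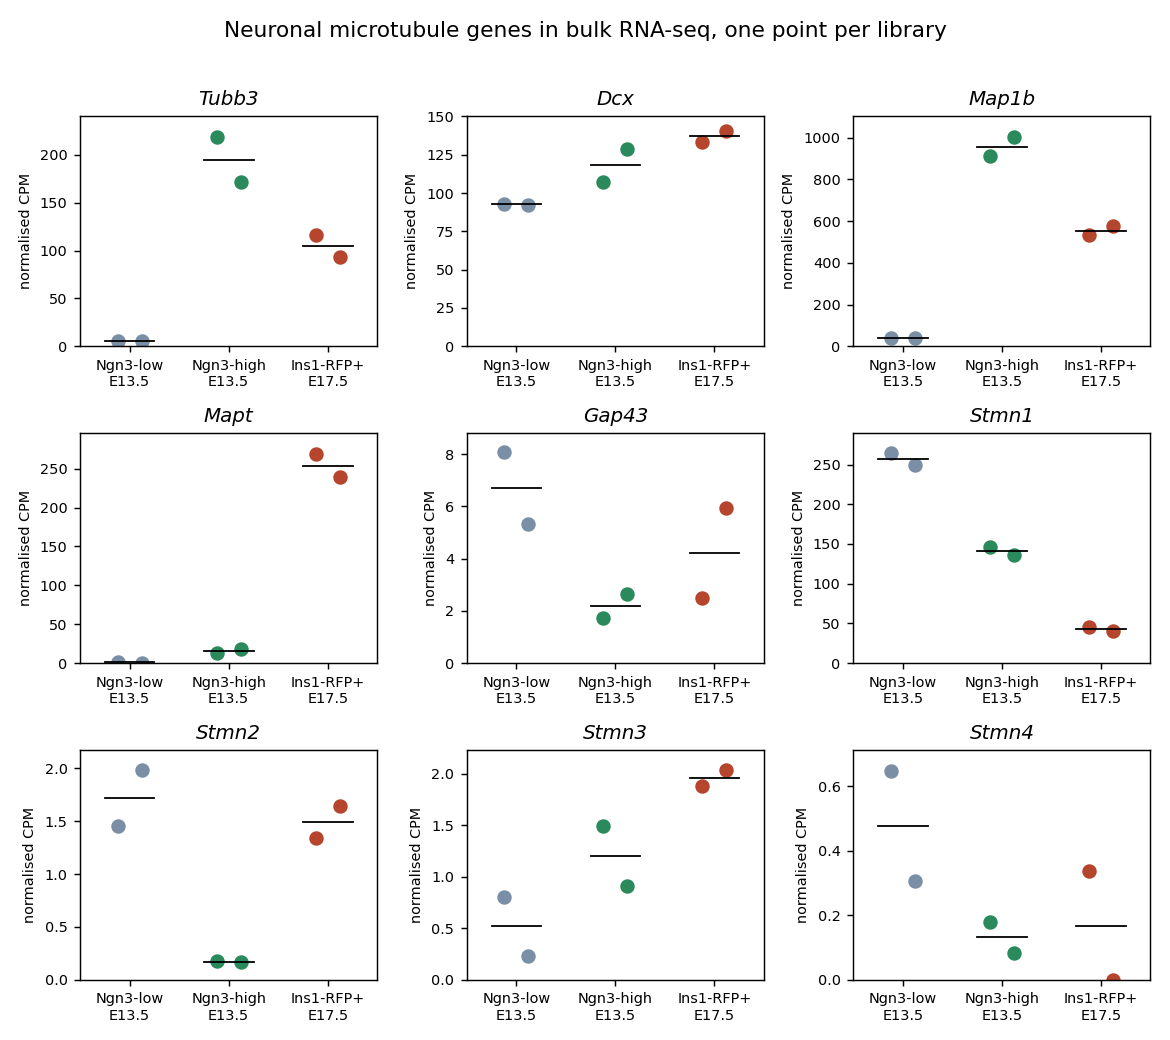
Each panel plots 1 member, with TMM-normalised CPM on a linear axis from 0 and 1 point per library; the line is the mean of the 2 libraries of a group. Tubb3 and Map1b peak in Ngn3-high cells, Mapt stands at 254 CPM on average in Ins1-RFP+ cells, and Stmn1 falls at both steps.

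Ins1-RFP+ cells of E17.5 against Ngn3-high cells of E13.5 follow the members into beta cells, with age and cell type changing together. Mapt rose further, Stmn2 rose, Tubb3, Map1b and Stmn1 fell, and Dcx, Stmn3 and Gap43 did not pass the test. That is 2 members higher, against a background of 26.1% of all genes tested, and 3 lower, against a background of 24.9%. The median log2 fold change of the 8 members was 0.44, or 0.20 over 9 without Ins1-RFP+ library 2, and that of all genes tested was 0.01. Both comparisons use the same Ngn3-high libraries, so their values are not independent of each other.

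Mapt had 269 and 240 CPM in the Ins1-RFP+ libraries, against 13.02 and 18.14 CPM for Ngn3-high. Both Ins1-RFP+ libraries lie far above both Ngn3-high libraries. Acinar markers summed to 1102 CPM in Ins1-RFP+ library 1 and 17899 CPM in library 2, and their part in the level of Mapt was not tested. The log2 fold change was 4.04 (SE 0.205, edgeR adjusted p = 4.89e-06), a 16.4-fold rise, and it was between 3.82 and 4.28 when each library was left out in turn. Against Ngn3-low cells, Mapt was 252-fold higher in Ins1-RFP+ cells, with a log2 fold change of 7.98 (SE 0.275, edgeR adjusted p = 2.91e-07), and the log2 value was 8.68 without Ngn3-low library 1.

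Tubb3 had 117 and 93.2 CPM in the Ins1-RFP+ libraries, against 218 and 172 CPM for Ngn3-high. It was 1.86-fold lower (log2 fold change -0.89, SE 0.152, edgeR adjusted p = 0.00167) with no overlap, but still 19.3-fold higher in Ins1-RFP+ cells than in Ngn3-low cells (edgeR adjusted p = 6.05e-07). Map1b had 534 and 575 CPM in the Ins1-RFP+ libraries, against 909 and 1002 CPM for Ngn3-high. It was 1.72-fold lower (log2 fold change -0.79, SE 0.123, edgeR adjusted p = 0.00108) and 13.9-fold higher in Ins1-RFP+ than in Ngn3-low cells (edgeR adjusted p = 3.08e-07). Both thus kept most of their rise over Ngn3-low cells on the log2 scale.

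Stmn1 had 45.4 and 40.7 CPM in the Ins1-RFP+ libraries, against 147 and 136 CPM for Ngn3-high. It fell a second time, by 1.72 on the log2 scale (SE 0.111, edgeR adjusted p = 1.29e-05), and was 5.97-fold lower in Ins1-RFP+ cells than in Ngn3-low cells (edgeR adjusted p = 6.06e-07). Of the mitotic list, 13 of 18 genes rose at this step, against a background of 26.1% of all genes tested, and 0 fell, against 24.9%. Mki67 averaged 112 ± 1.82 CPM in Ins1-RFP+ and 46.8 ± 6.86 CPM in Ngn3-high (SD, n = 2 each). The part of the mitotic genes, or of other cell types, in this fall of Stmn1 was not tested.

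Stmn2 had 20 and 21 reads in the Ins1-RFP+ libraries, 1.34 and 1.65 CPM, against 3 and 2 reads in the Ngn3-high libraries. The ratio of pooled reads per depth was 8.53, with an exact binomial interval of 3.37 to 27.7, and edgeR gave an adjusted p of 0.00193. Its level in Ins1-RFP+ cells overlapped that in Ngn3-low cells (log2 fold change -0.19, edgeR adjusted p = 0.678). Markers of white blood cells, endothelium, mesenchyme and acinar cells were also higher in Ins1-RFP+ than in Ngn3-high libraries, with 8 of 8, 7 of 7, 7 of 9 and 6 of 6 tested genes past the test. The mesenchyme count was 1 without Ngn3-high library 1 and 4 without Ins1-RFP+ library 2, and the acinar count was 2 of 7 without Ngn3-high library 1 and 3 of 8 without Ngn3-high library 2. The part of these cells in the Stmn2 reads was not tested.

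Dcx had 133 and 141 CPM in the Ins1-RFP+ libraries, against 107 and 129 CPM for Ngn3-high (log2 fold change 0.21, edgeR adjusted p = 0.153). It did pass at 0.34 once Ngn3-high library 2 was left out (adjusted p = 0.0376). Against Ngn3-low cells Dcx was 1.48-fold higher in Ins1-RFP+ cells (edgeR adjusted p = 0.00264). Gap43 had 2.49 and 5.96 CPM in the Ins1-RFP+ libraries, against 1.73 and 2.66 CPM for Ngn3-high, with overlap. Its difference missed the test (log2 fold change 0.95, edgeR adjusted p = 0.123), but passed it without Ins1-RFP+ library 1 (1.46, adjusted p = 0.011), where it was 0.20 without Ins1-RFP+ library 2 (adjusted p = 0.738), and with no filter on low counts (0.95, adjusted p = 0.0177).

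Stmn3 had 1.88 and 2.04 CPM in the Ins1-RFP+ libraries, against 1.49 and 0.92 CPM for Ngn3-high (log2 fold change 0.67, edgeR adjusted p = 0.301). It was 3.53-fold higher in Ins1-RFP+ than in Ngn3-low cells (edgeR adjusted p = 0.0185), a call lost without Ngn3-low library 2 (log2 fold change 1.26, adjusted p = 0.1). Stmn4 had 5 and 0 reads in the Ins1-RFP+ libraries. Over the whole span, Ins1-RFP+ against Ngn3-low, 5 members were higher, against a background of 30.4% of all genes tested, and 1 was lower, against a background of 35.5%. Gap43 was not called over that span (log2 fold change -0.69, edgeR adjusted p = 0.19), but it was without Ins1-RFP+ library 2 (-1.43, adjusted p = 0.0103), and the difference was -0.18 without Ins1-RFP+ library 1 (adjusted p = 0.698) and -0.34 without Ngn3-low library 1 (adjusted p = 0.613).

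**Figure D2:**
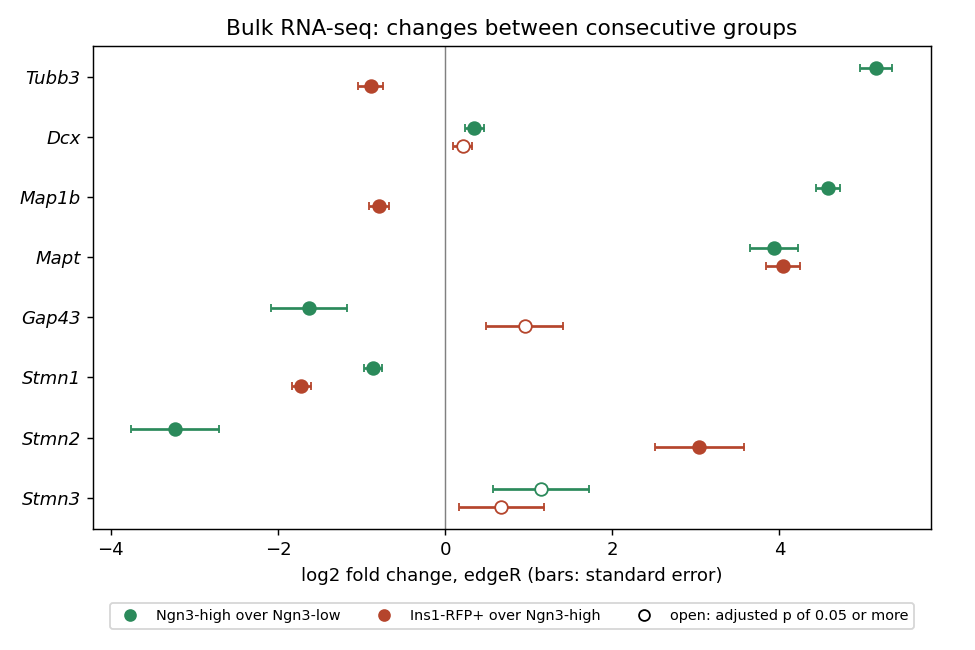
The plot gives the log2 fold change of each tested member (points) with its standard error (bars) for Ngn3-high over Ngn3-low in green and Ins1-RFP+ over Ngn3-high in red; open points have an adjusted p of 0.05 or more. Mapt has 2 rises of about equal size, 3.94 and 4.04, Tubb3 and Map1b have a steep rise and a small fall, and Stmn1 has 2 falls.

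Per kilobase of exon, on which genes can be set beside each other, the order of the members turned over between groups. In Ngn3-low cells Stmn1 stood at 243 ± 10.3 CPM per kb, Dcx at 10.2 ± 0.0456, Gap43 at 4.73 ± 1.37, Map1b at 3.36 ± 0.0146 and Tubb3 at 2.90 ± 0.228 CPM per kb (SD, n = 2 each). In Ngn3-high cells Stmn1 led with 133 ± 6.83 CPM per kb, before Tubb3 with 104 ± 17.6, Map1b with 80.6 ± 5.53, Dcx with 13.025 ± 1.68 and Mapt with 2.97 ± 0.690 CPM per kb. These leading neighbours did not overlap between libraries in either group.

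In Ins1-RFP+ cells, 4 members stood close together: Tubb3 at 56.2 ± 8.86 CPM per kb, Mapt at 48.4 ± 3.91, Map1b at 46.8 ± 2.48 and Stmn1 at 40.6 ± 3.15 CPM per kb (SD, n = 2 each). Tubb3 and Mapt overlapped between libraries, as did Mapt and Map1b. Dcx followed at 15.1 ± 0.568 CPM per kb. Gap43, Stmn2, Stmn3 and Stmn4 averaged under 5 CPM per kb in every group. In the authors' deposited table of pooled RPKM, Mapt stood at 0.19 RPKM in Ngn3-low, 2.88 RPKM in Ngn3-high and 49.38 RPKM in Ins1-RFP+ cells, and Stmn1 at 239.94 RPKM in Ngn3-low, 134.04 RPKM in Ngn3-high and 41.44 RPKM in Ins1-RFP+ cells.

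The counts of the other lists for Ngn3-high against Ngn3-low stand against the background of 27.7% of all genes tested higher and 30.2% lower. A tubulin list without Tubb3 held alpha- and beta-tubulins and also gamma-tubulin genes. Of its 12 tested genes, 3 were higher in Ngn3-high than in Ngn3-low cells, a share near that background. Another 7 were lower, and the median log2 fold change was -0.43. Tuba1a, the alpha-tubulin of growing neurons, averaged 252 ± 8.97 CPM in Ngn3-high and 82.6 ± 0.0556 CPM in Ngn3-low (log2 fold change 1.61, edgeR adjusted p = 2.02e-05), and Tuba4a rose by 1.64. Tubb5, the widely used beta-tubulin, averaged 396 ± 1.79 CPM in Ngn3-high and 1126 ± 4.76 CPM in Ngn3-low (log2 fold change -1.51, edgeR adjusted p = 2.00e-05), and Tuba1b and Tuba1c fell by 2.20 and 1.94. Tubulin genes have near-identical copies among which reads can be split, so their single values are uncertain.

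Of 19 transport kinesins, dyneins and their light chains, 15 rose and 1 fell. Kif1a, a kinesin that carries vesicles, averaged 185 ± 30.5 CPM in Ngn3-high and 14.1 ± 1.93 CPM in Ngn3-low (log2 fold change 3.71, edgeR adjusted p = 1.01e-06). Kif1c fell with a log2 fold change of -1.03. Of 16 genes of tubulin severing and modification, 11 rose and 3 fell. Ttll7, a polyglutamylase, averaged 157 ± 19.8 CPM in Ngn3-high and 13.8 ± 0.268 CPM in Ngn3-low. Fign fell with a log2 fold change of -3.19 and Fignl1 with -2.23. Of 20 genes of the plus end and the lissencephaly complex, 10 rose and 3 fell. Mapre3, an end-binding protein, averaged 133 ± 5.71 CPM in Ngn3-high and 13.7 ± 1.45 CPM in Ngn3-low. Nde1 fell with a log2 fold change of -2.13. Of 15 other structural microtubule-associated proteins, 5 rose, a share near the background, and 2 fell; Map1a rose by 3.59, Map9 by 3.20 and Map6 by 4.66 on the log2 scale.

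Of 17 growth cone genes, 9 rose and 4 fell. Dpysl5, a collapsin response mediator, averaged 220 ± 36.2 CPM in Ngn3-high and 9.73 ± 2.55 CPM in Ngn3-low. Among the falls, Ablim1 had a log2 fold change of -1.88 and Fez2 of -1.78. Of 7 intermediate filament genes, 3 rose and 2 fell, which with so few genes is not set apart from the background. Nefm, a neurofilament subunit, averaged 259 ± 13.2 CPM in Ngn3-high and 10.3 ± 4.47 CPM in Ngn3-low. The falls were Nes, with a log2 fold change of -4.05, and Vim, with -1.45. The fall count of 2 structural proteins became 1 when either Ngn3-low library or Ngn3-high library 2 was left out and 4 under total-count scaling, the fall count of 1 transport motor became 2 without Ngn3-high library 1, Ins1-RFP+ library 1 or Ins1-RFP+ library 2 and under total-count scaling, and the fall count of 3 plus-end genes became 5 under total-count scaling.

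For Ins1-RFP+ against Ngn3-high cells the background is 26.1% of all genes tested higher and 24.9% lower. Of the 12 tubulin genes, 1 rose and 7 fell, with Tubb2a at 86.6 ± 12.7 CPM in Ins1-RFP+ and 30.4 ± 2.82 CPM in Ngn3-high, and Tubb2b at 14.4 ± 0.802 CPM in Ins1-RFP+ and 52.8 ± 7.40 CPM in Ngn3-high. The fall count was 3 without Ngn3-high library 1 and 4 without Ins1-RFP+ library 2, which also gave 2 rises. Of the 15 structural proteins, 4 rose and 4 fell, both near the background, the falls becoming 1 without Ins1-RFP+ library 1 and 2 without Ins1-RFP+ library 2. Map2, a dendritic protein of neurons, rose by 0.81 on the log2 scale and Map6 by 1.08, while Map1a, a relative of Map1b, fell by 2.04.

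Of the 7 intermediate filament genes, 4 rose and 3 fell. Nefh averaged 27.7 ± 0.202 CPM in Ins1-RFP+ and 3.57 ± 1.67 CPM in Ngn3-high, and Nefm averaged 41.6 ± 7.35 CPM in Ins1-RFP+ and 259 ± 13.2 CPM in Ngn3-high. Leaving out Ngn3-high library 1 gave 1 rise, and leaving out either Ngn3-high library 2 or Ins1-RFP+ library 2 gave 2. Of the 17 growth cone genes 3 rose, or 5 without Ins1-RFP+ library 1, and 7 fell, with Dpysl5 down by a log2 fold change of -2.74 and Dpysl4 by -3.10. Of the 19 transport genes 1, Kif5c, rose, or 2 without Ngn3-high library 2, and 8 fell. Of the 16 severing and modification genes 1 rose and 6 fell. Of the 20 plus-end genes 2 rose and 6 fell, the falls near the background. With DESeq2 size factors 3 plus-end genes rose and 4 fell, and under total-count scaling 1 rose and 8 fell. The fall counts of both lists and the plus-end rises also moved when single libraries were left out.

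**Figure D3:**
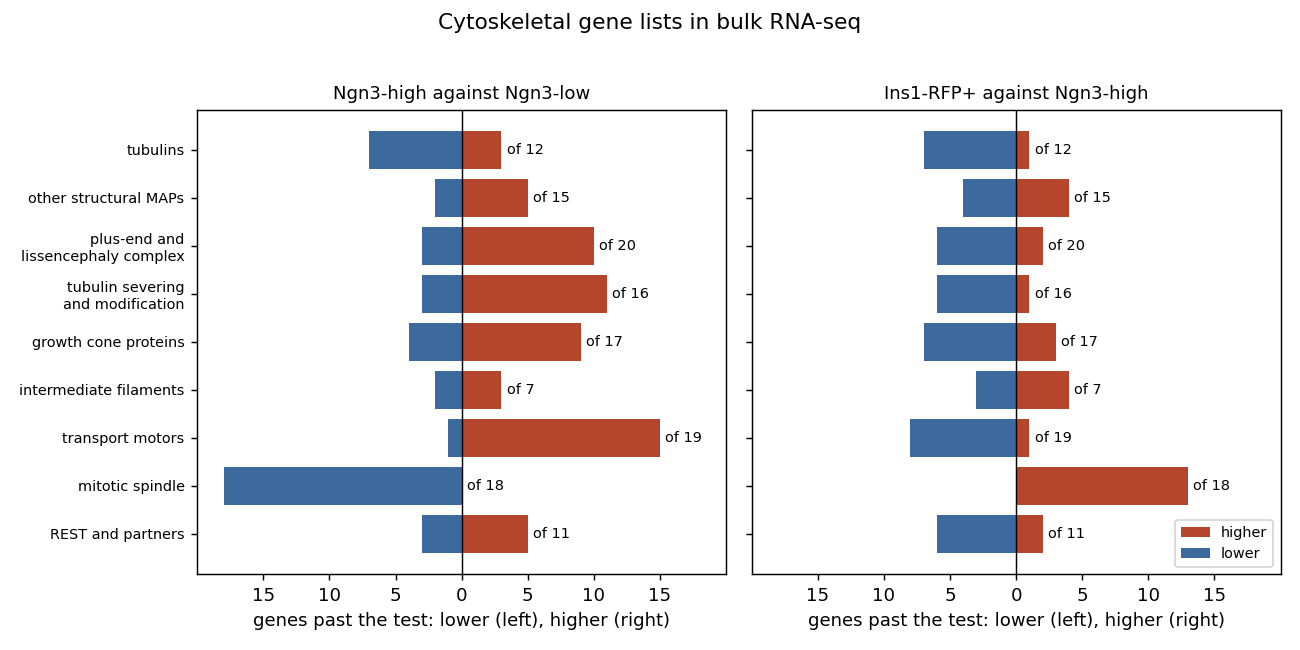
Bars give the number of genes of each list past edgeR's adjusted p of 0.05, higher to the right and lower to the left, for Ngn3-high against Ngn3-low (left panel) and Ins1-RFP+ against Ngn3-high (right panel); the number of genes tested stands beside each bar. Transport motors have 15 rises on the left and 8 falls on the right, and the mitotic list has 18 falls on the left and 13 rises on the right.

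Rest itself averaged 9.02 ± 2.54 CPM in Ngn3-high and 165 ± 5.47 CPM in Ngn3-low (SD, n = 2 each, log2 fold change -4.21, SE 0.231, edgeR adjusted p = 1.84e-06). At this step Tubb3, Map1b and Mapt moved opposite to it, while Stmn1, Stmn2 and Gap43 fell as it did. In Ins1-RFP+ cells Rest averaged 7.98 ± 2.35 CPM, near its Ngn3-high level, while Mapt rose and Tubb3 and Map1b fell. The part of Rest in the levels of the members was not tested. Of 11 genes of REST and its partners, 5 were higher in Ngn3-high cells and 3 lower, the falls near the background of 30.2% of all genes. Among the partners, Rcor2, a corepressor subunit, averaged 349 ± 25.7 CPM in Ngn3-high and 132 ± 6.17 CPM in Ngn3-low. From Ngn3-high to Ins1-RFP+ cells 2 of the 11 rose, or 1 when any library other than Ngn3-high library 2 was left out and under total-count scaling, and 6 fell, with Rcor2 down by a log2 fold change of -2.32.

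Markers of neurons and neural crest were set beside the members, since nerve cells in the tissue would also carry them. The 19 markers summed to 272 and 265 CPM in the Ngn3-low libraries, 395 and 373 CPM in the Ngn3-high libraries, and 244 and 235 CPM in the Ins1-RFP+ libraries. Of the 15 tested, 8 were higher and 2 lower in Ngn3-high than in Ngn3-low cells, and 5 were higher and 8 lower in Ins1-RFP+ than in Ngn3-high cells, against the backgrounds of 27.7%, 30.2%, 26.1% and 24.9%. The 2 lower were 4 of 17 tested without Ngn3-high library 2, and the 5 higher were 3 of 16 tested without Ins1-RFP+ library 2. Of the 19, 0 and 1 had no read in the Ngn3-low libraries, 2 and 1 in the Ngn3-high libraries, and 3 and 1 in the Ins1-RFP+ libraries. Their part in the levels of the members was not tested.

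Single cells showed how the bulk levels were spread. Values are CPM of the reads summed over a group's cells, with an exact Poisson interval at 95%, and a cell counts as reading a gene at 10 CPM or more, with a Clopper-Pearson interval at 95% for the share. Smart-seq2 reads carry no molecular identifiers, so these intervals cover counting error only. The median cell had 708409 reads in genes and the shallowest 380478.

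Tubb3 had 354 CPM (347.8 to 360.8) in deleted and 419 CPM (412 to 425) in WT Ngn3-high cells. It had 0.192 CPM (0.0920 to 0.353) in deleted and 0.247 CPM (0.107 to 0.488) in WT Ngn3-low cells. It was read in 39 of 44 deleted Ngn3-high cells (88.6%, 75.4 to 96.2%) and in 51 of 59 WT Ngn3-high cells (86.4%, 75.02 to 93.96%). Of the Ngn3-low cells, 0 of 69 deleted cells read it, where a limit of 3 cells of the total allows up to 4.35%, and 0 of 49 WT cells, where it allows up to 6.12%. The highest single Ngn3-low cell stood at 2.20 CPM, while the median Ngn3-high cell had 310 CPM when deleted and 335 CPM when WT. The 5.41 CPM of bulk Ngn3-low cells were thus above the level of either group of single Ngn3-low cells, on tables that were made and scaled separately.

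Map1b had 1096 CPM (1085 to 1108) in deleted and 1131 CPM (1121 to 1141) in WT Ngn3-high cells, and 15.4 CPM (14.4 to 16.5) in deleted and 15.4 CPM (14.05 to 16.78) in WT Ngn3-low cells. It was read in 42 of 44 deleted and 57 of 59 WT Ngn3-high cells, and in 15 of 69 deleted and 13 of 49 WT Ngn3-low cells. Where Tubb3 was unread, then, a minority of Ngn3-low cells read Map1b, up to 237 CPM in 1 deleted cell and 152 CPM in 1 WT cell.

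Stmn1 was read in nearly every cell. It had 288 CPM in deleted and 299 CPM in WT Ngn3-high cells, and 445 CPM in deleted and 438 CPM in WT Ngn3-low cells. All 69 deleted and all 49 WT Ngn3-low cells read it, and 39 of 44 deleted and 57 of 59 WT Ngn3-high cells. Its level in single Ngn3-high cells reached from 0 to 1156 CPM in deleted cells and from 0 to 1303 CPM in WT cells.

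Dcx was read in part of each group and so differs from Tubb3, which split the groups. It had 89.6 CPM in deleted and 71.7 CPM in WT Ngn3-high cells, and 52.8 CPM in deleted and 54.03 CPM in WT Ngn3-low cells. The share of reading cells was 56.8% (41.03 to 71.65%) in deleted and 59.3% (45.7 to 71.9%) in WT Ngn3-high cells, and 59.4% (46.9 to 71.1%) in deleted and 46.9% (32.5 to 61.7%) in WT Ngn3-low cells. Of the Ngn3-low cells, which did not read Tubb3, 41 deleted and 23 WT cells read Dcx.

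Mapt and Stmn3 were rare. Mapt had 8.99 CPM (7.98 to 10.1) in deleted and 2.16 CPM (1.75 to 2.64) in WT Ngn3-high cells, and 1.27 CPM in deleted and 0.124 CPM in WT Ngn3-low cells. It was read in 7 of 44 deleted and 5 of 59 WT Ngn3-high cells. All 12 also read Map1b, as did nearly all Ngn3-high cells. Of the 3 deleted Ngn3-low cells that read Mapt, 1 also read Map1b. Stmn3 had 0.713 CPM in deleted and 3.93 CPM in WT Ngn3-high cells, from 1 and 5 reading cells, and 0 reads in Ngn3-low cells.

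Stmn2, Stmn4 and Gap43 were all but unread in single cells. Stmn2 had 2 reads in all, in WT Ngn3-high cells, Gap43 had 1, in WT Ngn3-low cells, and Stmn4 had 19, in deleted Ngn3-low cells, with 1 cell at 21.1 CPM. By the same limit of 3 cells, a count of 0 in the 59 WT Ngn3-high cells allows up to 5.08% of cells reading a gene.

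**Figure D4:**
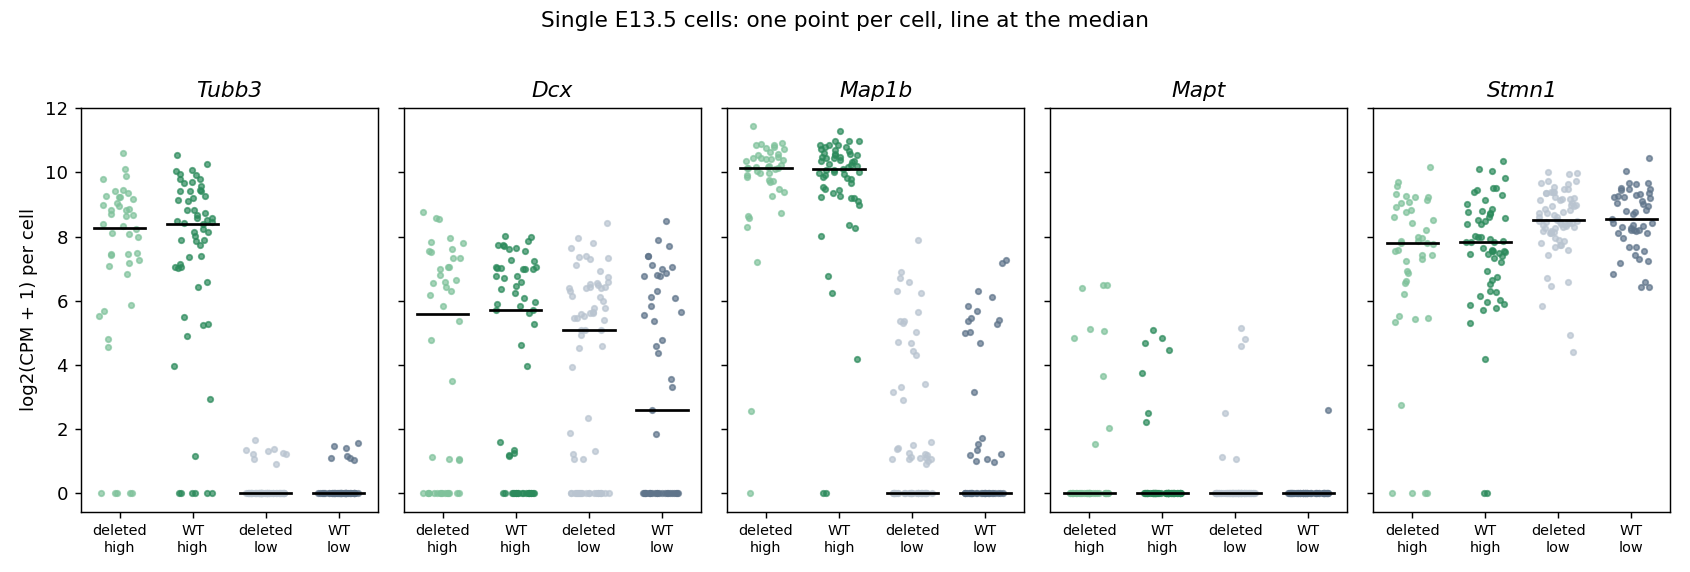
Each point is 1 E13.5 cell, with log2(CPM + 1) on the vertical axis and the 4 groups from deleted Ngn3-high to WT Ngn3-low along the horizontal axis; the line is the median. Tubb3 separates Ngn3-high from Ngn3-low cells without a cell of the Ngn3-low groups at 10 CPM, Dcx is split within every group, and Stmn1 is present almost throughout.

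With 1 sample a group there is no test between single-cell groups, and a member is counted as different when its log2 ratio, with 1 CPM added on both sides, which understates low genes, is past 2-fold and it has 5 CPM in either group. Among deleted cells, 3 members of 5 at that level were higher in Ngn3-high than in Ngn3-low cells, against a background of 15.3% of genes, and 0 were lower, against 18.7%. The log2 ratios were 8.22 for Tubb3, 6.06 for Map1b and 2.14 for Mapt, and 0.75 for Dcx and -0.63 for Stmn1 stayed within 2-fold. Tubb3 and Mapt reached 5 CPM only through the Ngn3-high cells, so that nothing is read from these counts against the background. Among WT cells, 2 of 4 were higher, against a background of 14%, and 0 lower, against 19%. Here the log2 ratios were 8.39 for Tubb3 and 6.11 for Map1b, and 0.40 for Dcx and -0.55 for Stmn1 stayed within 2-fold. Tubb3 again reached 5 CPM only through the Ngn3-high cells.

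Deleted against WT cells ask whether the loss of Jmjd3 moved the members. In Ngn3-high cells 1 of 5 members at 5 CPM, Mapt, was past 2-fold higher, against a background of 2.96% of genes, and 0 were lower, against 2.76%. Mapt reached 5 CPM only through the deleted cells, so nothing is read from that count. The log2 ratios were -0.24 for Tubb3, -0.05 for Map1b, -0.05 for Stmn1, 0.32 for Dcx and 1.66 for Mapt. In Ngn3-low cells 0 of 3 members were past 2-fold in either direction, against backgrounds of 1.70% and 2.65%.

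The titles split each group by a number whose meaning the labels do not give, and the members were read within it. For Mapt, deleted Ngn3-high cells had 10.03, 8.46 and 5.78 CPM under title numbers 1, 5 and 6, against 2.68, 2.13 and 1.16 CPM in WT Ngn3-high cells. Deleted cells were higher under all 3 numbers, on 3, 3 and 1 reading cells in deleted and 2, 2 and 1 in WT cells. The count of members past 2-fold was 0 with 5 CPM added in place of 1, and 0 on the mean of the deposited RPKM, so the Mapt difference rests on low levels and few cells. For Tubb3, deleted Ngn3-high cells had 332, 427 and 329 CPM under the same numbers, against 403, 403 and 459 CPM in WT Ngn3-high cells, and the order of the groups was not the same under all 3.

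Counted per cell, Ngn3-high cells read more of the 9 members, and Tubb3 and Map1b were those whose share of reading cells rose most. The median was 4 members at 10 CPM or more in deleted and 4 in WT Ngn3-high cells, and 2 in deleted and 2 in WT Ngn3-low cells. A count of 4 members was found in 23 of 44 deleted and 33 of 59 WT Ngn3-high cells, and in 1 of 69 deleted and 0 of 49 WT Ngn3-low cells. All 51 WT Ngn3-high cells that read Tubb3 also read Map1b, as did 37 of 39 deleted ones. Map1b was read in 57 of 59 WT and 42 of 44 deleted Ngn3-high cells in all, so these counts lie near its overall share. Tubb3 and Dcx were read together in 23 deleted and 30 WT Ngn3-high cells, and Tubb3 without Dcx in 16 deleted and 21 WT cells.

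**Figure D5:**
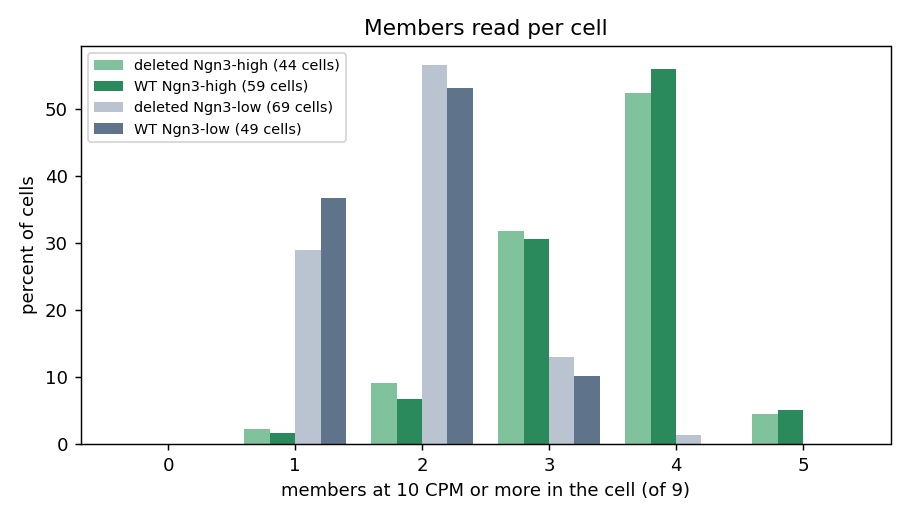
Bars give the percent of cells of each group (vertical axis, from 0) by the number of the 9 members read at 10 CPM or more (horizontal axis). Ngn3-high cells of both genotypes peak at 4 members, and Ngn3-low cells at 2.

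Within Ngn3-high cells the members did not vary as 1 block. Spearman's rho over 44 deleted and 59 WT Ngn3-high cells is given as a description, without a test, since the cells of a group come from an unknown number of animals. Tubb3 and Map1b correlated at 0.28 in deleted and 0.32 in WT cells, and Map1b and Stmn1 at -0.01 in deleted and -0.20 in WT cells. Tubb3 and Stmn1 correlated at 0.65 in deleted and 0.28 in WT cells.

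Stmn1 and Map1b had opposite signs against the endocrine genes Chgb and Pax6. Stmn1 correlated with Chgb, the secretory granule protein chromogranin B, at -0.60 in deleted and -0.58 in WT cells, with Pax6, an endocrine transcription factor, at -0.58 in deleted and -0.64 in WT cells, and with Neurog3 at 0.61 in deleted and 0.40 in WT cells. Map1b correlated with Chgb at 0.34 in deleted and 0.38 in WT cells, and with Pax6 at 0.23 in deleted and 0.44 in WT cells. With Neurog3 it stood at -0.03 in deleted and 0.00 in WT cells. Against Chgb, Dcx stood at -0.46 in deleted and -0.20 in WT cells, and Tubb3 at -0.34 in deleted and -0.15 in WT cells. Against the number of reads in the cell, Stmn1 stood at 0.02 in deleted and 0.00 in WT cells, and Map1b at -0.22 in deleted and 0.08 in WT cells.

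The genes whose pattern over the 59 WT Ngn3-high cells was most like the mean log2(CPM + 1) of Tubb3, Dcx, Stmn1 and Map1b, the 4 members at 20 CPM or more, were ranked by Spearman's rho among 7313 genes, whose median rho was 0.02. Dbn1 led at 0.69, before Rfwd3 at 0.64, Inppl1 at 0.62, Miat, Ppib, Igfbpl1 and Sulf2 at 0.61 and Tmsb4x at 0.60. In the 44 deleted Ngn3-high cells, which did not choose them, the same 8 stood between 0.52 for Inppl1 and 0.79 for Rfwd3, with Dbn1 at 0.76, where the median of the candidates was 0.01. By Pearson's r, 3 of the 8, Dbn1, Rfwd3 and Miat, were again among the top 8.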

How the data were processed

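Members and gene lists were chosen with earlier results of these data known. Poly(A) RNA of sorted cells went into strand-specific bulk libraries, and Smart-seq2 with ERCC RNA was used for single cells, per the labels' protocols. The build mm10 and the tools HTSeq 0.6.0, TopHat2 2.1.0, DESeq 1.20.0 and Bowtie2 stand in the submitters' processing notes. The strand setting of the counting was not given, and antisense reads cannot be told apart. The authors deposited whole-number counts per gene, used here without the 92 ERCC entries, and RPKM, pooled per group for bulk. Every column was tied to a sample or group.

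Bulk counts of all 6 libraries were fitted with edgeR 4.0.16 in R 4.3.3, with TMM factors, filterByExpr and no block, and tested on simulated counts. DESeq2 1.42.0 was an alternative. In each comparison all 9 members were named, and of each of 9 pathway lists up to 3 rises and 3 falls with the largest log2 fold change at 10 CPM or more in the higher group, some given as counts only; Mki67, Rest and other markers are named where they stand beside a member. Of the listed genes, 1 was not found under its symbol. Single-cell reads were summed per group, and a cell was counted at 10 CPM; all 221 cells were kept, and doublets were not searched for, as each library is 1 sorted cell. The 2 libraries of each bulk group differed by more than sampling noise and were counted separately.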

Additional observations from a re-analysis of the deposited data

How the results depend on the processing

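The counts of members called were between 6 and 7 for Ngn3-high against Ngn3-low, 5 and 6 for Ins1-RFP+ against Ngn3-high and 5 and 7 for Ins1-RFP+ against Ngn3-low when each library was left out in turn. Across the other settings, DESeq2 size factors, DESeq2, total counts, no filter on low counts and only the 4 libraries compared, they stayed within 1.5 times the reported 7, 5 and 6. Of 288 single log2 fold changes, 275 kept sign and side of the threshold, 7 lost it, 5 gained it and 1 reversed: Stmn2 in Ins1-RFP+ against Ngn3-low, which ranged from -0.41 to 0.03 when each library was left out, with 0.03 without Ngn3-low library 2. With the replicate number as a block, 7, 5 and 6 members were called, as without it; same-numbered libraries deviated together with a correlation of 0.0954, 0.0912 and 0.111, and the labels tie the number to no animal or day, so it was not taken as a pairing. Total-count scaling moved the median log2 fold change of all genes for Ins1-RFP+ against Ngn3-low to -0.24 in place of -0.08.

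At 50 CPM in place of 10 the median number of members per cell was 3 in deleted and 3 in WT Ngn3-high cells and 1 in deleted and 1 in WT Ngn3-low cells. Members past 2-fold in deleted against WT Ngn3-high cells were 1 as reported, 0 with 5 CPM added, 0 on the deposited RPKM and 2 in title number 5 alone; in Ngn3-low cells they were 0, and 1 in title number 5 alone. Of 102 single-cell log2 ratios of members under other settings, 41 stayed within a small set margin of the reported value and 61 moved past it. For Ngn3-high against Ngn3-low cells over all settings, Tubb3 ranged from 6.11 to 8.74 in deleted and from 6.33 to 8.66 in WT cells. Map1b ranged from 5.38 to 6.44 in deleted and from 4.69 to 6.19 in WT cells, and Mapt from 1.04 to 3.24 in deleted cells. Of the 8 genes most like the members, 3 were among the top 8 by Pearson's r. Thinning every cell to 380478 reads, an alternative chosen after seeing the data, as were the list counts without each library, moved the number of reading cells by at most 1 in each member and group. Depth limits Stmn4, with 0 to 12 reads a library, Stmn2 in Ngn3-high libraries, with 3 and 2 reads, and Stmn3 in Ngn3-low library 2, with 3 reads.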
